A study of Mus musculus with 24 samples.

Results

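Mammary tumors of the mouse lines D2.1 and D2A1, grown in SCID-beige mice, were compared by RNA-seq, with 5 tumors of each line. The 10 tumors were taken by the line and host in their sample labels and are 10 of 24 libraries. The others are 4 tumors of either line from BALB/c hosts and 3 cultures of each line, which are used here only to set the same line difference beside that of the SCID-beige tumors. Both lines descend from hyperplastic alveolar nodules of the D2 series in mice of the BALB/c strain. The hosts were females aged 8 to 12 weeks that carry the scid mutation of Prkdc and the beige mutation of Lyst on a BALB/c-type background, so they lack functional T and B cells and have defective natural killer (NK) cells. Each mouse received 1000000 cells in the mammary fat pad and no other agent, and a tumor was collected at about 500 mm3. Each group stands on 1 cell line, so its values describe that line and no class of tumors. The tumors were matched by size and not by time, and line and time since implantation cannot be told apart. RNA came from frozen whole tumors, which hold tumor cells and host cells of the same species. In such bulk samples, fewer cells of a type and less RNA per cell cannot be told apart.

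D2.1 cells are known for long periods without outgrowth at distant sites, whereas D2A1 cells grow out readily. In a host with T cells, antigen shown on class I molecules of the major histocompatibility complex (MHC) marks a tumor cell for killing, and class II molecules show antigen to helper T cells. A SCID-beige host removes that arm of the response, while macrophages, blood vessels, fibroblasts and matrix remain. The comparison therefore shows which differences between the lines stand in tumors that grew without adaptive immunity.

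The deposited gene counts came to between 16066945 and 17656042 per D2.1 tumor and between 13566949 and 15427510 per D2A1 tumor. A level is given in CPM, a gene's count scaled to a library of 1000000 counts after edgeR's TMM normalization. On that scale 3 counts correspond to between 0.172 and 0.210 CPM, and this floor covers counting error only. Each log2 fold change is D2.1 minus D2A1, fitted on the 10 tumors with edgeR's quasi-likelihood test, and a gene is called higher or lower where its adjusted p (Benjamini-Hochberg, over 14355 genes) was under 0.05. A number in brackets after a gene is its log2 fold change unless another unit is given. Of the genes tested, 32.1% were called, 17.2% higher and 14.8% lower in D2.1 tumors, the groups did not overlap for 23.7%, and the median log2 fold change of all genes was 0.02. The shares of 17.2% and 14.8% are those to set beside each count of list members in SCID-beige tumors below. Mitochondrial genes took 1.37 to 2.43% of counts in D2.1 tumors and 1.46 to 2.15% in D2A1 tumors.

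Lymphocyte markers were low in both groups and were not absent. The summed level of 10 T cell markers was 16.8 to 36.5 CPM in D2.1 tumors and 5.69 to 8.94 CPM in D2A1 tumors, and that of 8 B cell markers was 26.3 to 69.96 and 5.17 to 18.3 CPM. Cd3g, Ctla4, Ms4a1 and Igkc were at 0 in the 5 D2A1 tumors. Enough counts for a test were found for 3 of the T cell markers, of which the T cell kinase Lck (log2 fold change 3.01) and the coreceptor Cd4 (2.21) were higher and the receptor constant region Trac (-2.85) was lower in D2.1 tumors. Cd79b, part of the B cell receptor, differed by a log2 fold change of 4.93 and the antibody chain Ighm by 2.09, both higher in D2.1 tumors. Lck, Cd4 and Trac were thus not all on the same side, and Cd4 is also found on myeloid cells.

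Markers of NK cells were higher in D2.1 tumors. Of 7 genes tested, 6 were higher and 0 lower, with a median log2 fold change of 3.95, and the remaining gene was the transcription factor Eomes. Their summed level was 34.7 to 91.7 CPM in D2.1 tumors and 8.44 to 20.4 CPM in D2A1 tumors. Ncr1, the activating receptor NKp46, stood at 7.99, 9.68, 4.94, 4.27 and 10.9 CPM in the D2.1 tumors and 0.629, 0, 0.480, 0 and 0 CPM in the D2A1 tumors. Prf1, the pore-forming protein of killer cell granules, stood at 12.6, 15.7, 5.58, 9.61 and 15.02 CPM and 0.419, 0.550, 0.274, 0 and 0.247 CPM. For both genes every D2.1 tumor was above every D2A1 tumor, by a factor of 34.1 for the mean of Ncr1 and 39.3 for that of Prf1 (edgeR, adjusted p = 3.0e-04 and 8.7e-06). The granzymes Gzmb (log2 fold change 3.95) and Gzma (3.78) and the receptors Klrb1c (5.56) and Klrk1 (2.89) were higher as well. The same sum in the cultured cells was 4.18 to 6.42 CPM for D2.1 and 27.4 to 32.9 CPM for D2A1, the opposite order from that in tumors. Eomes made most of the sum in D2A1 culture, at 30.7 CPM against 1.17 CPM in D2.1 cells. Klrb1c stood at 4.21 CPM in D2.1 culture and 0.0961 CPM in D2A1 culture, so its RNA was present without host cells.

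Other host cells split by type. Fibroblast markers summed to 6301 to 14801 CPM in D2.1 tumors and 1169 to 3037 CPM in D2A1 tumors, with 6 of 7 genes higher. In culture the sum was 1843 to 2631 CPM in D2.1 and 76.8 to 98.9 CPM in D2A1 cells, most of it Col1a1 (2063 and 81.6 CPM). Of the 7 genes, 3 had enough counts for a test in culture, Col1a1, Col3a1 and Pdgfra, and all 3 were higher in D2.1 cells. Endothelial markers went the other way, at 73.7 to 111 CPM in D2.1 tumors and 211.02 to 288 CPM in D2A1 tumors, and 5 of 7 were lower. Among these were the vessel junction cadherin Cdh5 (12.3 to 27.996 against 63.0 to 102 CPM), Pecam1 (24.4 to 33.5 against 68.5 to 93.7 CPM) and the surface glycoprotein Emcn (3.68 to 8.48 against 19.5 to 28.3 CPM). Vwf, the clotting factor carrier stored in endothelial cells, was higher (log2 fold change 1.10), and the angiopoietin receptor Tek was not called. In culture the same markers summed to at most 0.980 CPM.

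Macrophage markers summed to 1025 to 2278 CPM in D2.1 tumors and 863 to 1613 CPM in D2A1 tumors, which overlapped, although 5 of 9 genes were called higher. The endocytic receptors Mrc1 (log2 fold change 1.55) and Cd163 (1.62) and the engulfment receptor Mertk (1.17) were higher. The call for Cd163 was lost without D2.1 tumor 1 or 3 or D2A1 tumor 2, 3 or 4 (edgeR, highest adjusted p = 0.0891). Adgre1, the F4/80 antigen, ranged over 86.0 to 122 CPM and 25.9 to 67.9 CPM, and the colony-stimulating factor receptor Csf1r differed by a log2 fold change of 0.92 (SE 0.24). Dendritic cell markers summed to 12.1 to 28.7 and 7.70 to 10.8 CPM, with the growth factor receptor Flt3 (log2 fold change 3.64) and the chemokine receptor Xcr1 (2.37) among the 5 of 6 called higher and Zbtb46 (-1.08) lower. Mast cell proteases Cpa3 (log2 fold change 4.16), Mcpt4 (4.10) and Cma1 (3.49) were higher, although their list's summed level overlapped, at 7.43 to 53.2 and 4.26 to 11.7 CPM. The hemoglobin genes Hbb-bs (log2 fold change -5.25) and Hba-a1 (-4.85) and the heme synthesis gene Alas2 (-4.01) were lower in D2.1 tumors. The sum of this erythroid list was 4.92 to 18.5 CPM in D2.1 tumors and 48.5 to 1586 CPM in D2A1 tumors, where the highest value is that of D2A1 tumor 5. Without that tumor the log2 fold changes were -3.17 for Hbb-bs, -2.64 for Hba-a1 and -1.73 for Alas2, and these 3 genes were still called. No adipocyte marker was called. Of the neutrophil, skeletal muscle and skin markers, the receptor Csf3r (log2 fold change 1.31) and the actin Acta1 (4.47) were higher and the keratin Krt10 (-4.13) was lower, 1 gene of each list. No milk gene had enough counts for a test. Of 6 pericyte and smooth muscle genes, Cspg4 (log2 fold change -2.65) and Myh11 (-1.35) were lower. The call for Acta1 was lost without D2.1 tumor 4 or 5 or D2A1 tumor 1, 3, 4 or 5 (edgeR, highest adjusted p = 0.0896). That for Myh11 was lost without D2.1 tumor 2, 3, 4 or 5 or D2A1 tumor 1, 4 or 5 (edgeR, highest adjusted p = 0.117).

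**Figure D1:**
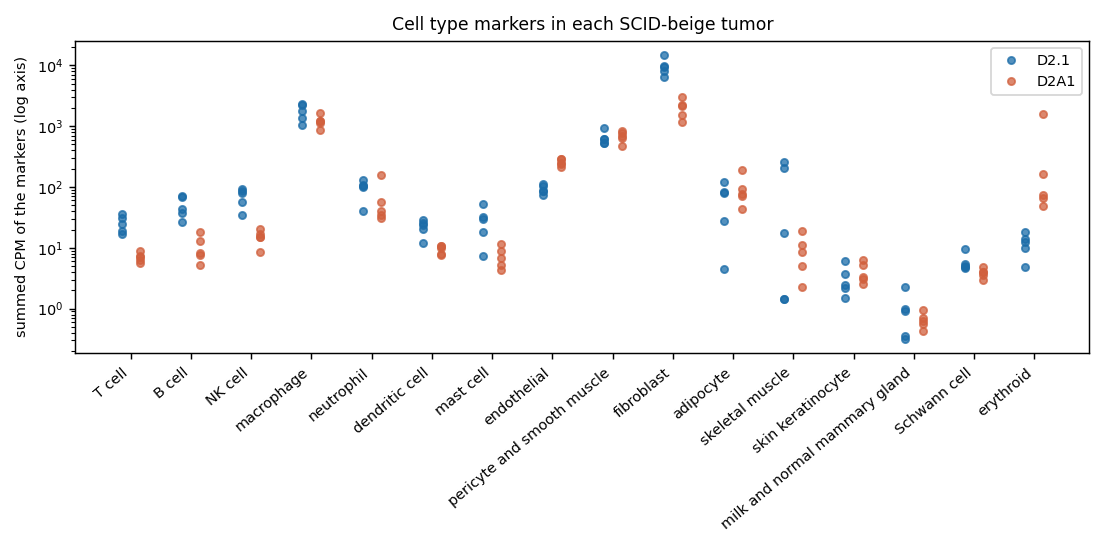
Summed level of the genes of 16 cell type marker lists in each of the 10 SCID-beige tumors (CPM on a log axis, 1 point per tumor, D2.1 and D2A1 in separate colors). NK and fibroblast sums lie higher and endothelial and erythroid sums lower in all 5 D2.1 tumors, and macrophage and neutrophil sums overlap.

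Several of the largest differences lay between a clear level in the tumors of one line and a level near 0 in those of the other. Among protein-coding genes without overlap whose higher group had a mean of 10 CPM or more, the 10 largest rises in D2.1 tumors were Col2a1, Eya1, Lhfpl4, Gria1, Edil3, Bche, Robo2, Matn4, Rarres1 and Lhx9. Col2a1, the main collagen of cartilage, stood at 95.7, 83.8, 48.1, 46.6 and 151 CPM in D2.1 tumors and at 0 in the 5 D2A1 tumors, a level at least 428-fold higher against a floor of 3 counts. Eya1, a transcriptional coactivator of ear and kidney development, ranged over 7.61 to 14.003 CPM in D2.1 tumors and was at 0 in the D2A1 tumors. The AMPA glutamate receptor subunit Gria1 ranged over 6.37 to 48.3 CPM against 0 to 0.123 CPM, and the axon guidance receptor Robo2 over 24.6 to 78.4 CPM against 0 to 0.548 CPM. The list thus holds neural genes beside skeletal ones. Edil3, a secreted integrin ligand, ranged over 16.8 to 97.2 against 0 to 0.493 CPM, and Matn4, a cartilage matrix adaptor, over 14.2 to 59.5 against 0 to 0.247 CPM.

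The 10 largest falls were Igf2bp1, Olfr1501, Morc1, Dlx5, Mmp10, Hydin, Pitx1, Cacna1c, Tnnt2 and Lmx1b. Igf2bp1, an RNA-binding protein of fetal tissue, was at 0 in the 5 D2.1 tumors and at 70.8, 71.6, 71.1, 71.1 and 65.2 CPM in the D2A1 tumors, at least 390.4-fold lower. In culture its mean was 4.46 CPM in D2.1 and 138 CPM in D2A1 cells, so D2.1 cells were not without it there. Pitx1, a homeobox factor of hindlimb and pituitary, stood at 0, 0, 0, 2.37 and 0 CPM in D2.1 tumors and 102, 115, 67.3, 76.7 and 66.0 CPM in D2A1 tumors. D2.1 tumor 4 had the highest Pitx1 level of its group and was still far under the lowest D2A1 tumor. Mmp10, the protease stromelysin-2, stood at 0.301, 0.286, 0.407, 0.890 and 0.511 CPM against 128, 71.3, 70.9, 196 and 90.2 CPM, a 232-fold lower mean (edgeR, adjusted p = 2.8e-08). The calcium channel subunit Cacna1c ranged over 0.180 to 0.511 CPM against 24.7 to 107 CPM, cardiac troponin Tnnt2 over 0.859 to 3.37 CPM against 168 to 310.0 CPM, and the limb factor Lmx1b over 0 to 0.320 CPM against 12.8 to 21.2 CPM.

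By absolute level, the genes that gained most in D2.1 tumors were matrix genes and Trp53: Col3a1, Trp53, Col6a1, Col1a1, Col6a2 and Sparc. Those that lost most were Tubb5, Gapdh, Hsp90ab1, Igfbp4, Arhgap23 and Hspa8. Tubb5, a tubulin subunit, stood at 1172, 1240.0, 1241, 1501 and 1275 CPM in D2.1 tumors and 4760.5, 4315, 3441, 3393 and 3412 CPM in D2A1 tumors, a 3.01-fold lower mean. Arhgap23, an activator of GTP hydrolysis by small GTPases, stood at 128, 123, 114, 97.8 and 96.2 CPM and 1298, 1424, 1238, 1555 and 1139 CPM, 11.9-fold lower. The glycolytic enzyme Gapdh and the chaperone Hsp90ab1 differed by -0.80 and -0.53 on the log2 scale. The chaperone Hspa8 differed by a log2 fold change of -0.58. The call for Hspa8 was lost without D2.1 tumor 2, 3 or 5 or D2A1 tumor 1 (edgeR, highest adjusted p = 0.0644).

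Among lincRNA and antisense genes with at least 5 CPM in the higher group, the largest rises were Gm47015, Gm32219 and Irx3os. Gm47015 ranged over 21.1 to 39.1 CPM in D2.1 tumors and was at 0 in the D2A1 tumors, at least 144-fold higher, and Irx3os was at least 55.1-fold higher. Irx3os lies antisense beside Irx3, and since the counting is not stated to use strand, their reads may not be fully separated. CT025671.4 (0 to 0.229 against 40.1 to 48.5 CPM), C130021I20Rik (0 to 1.009 against 5.19 to 10.96 CPM) and 5430421F17Rik (0 to 1.42 against 7.34 to 12.7 CPM) were lower.

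**Figure D2:**
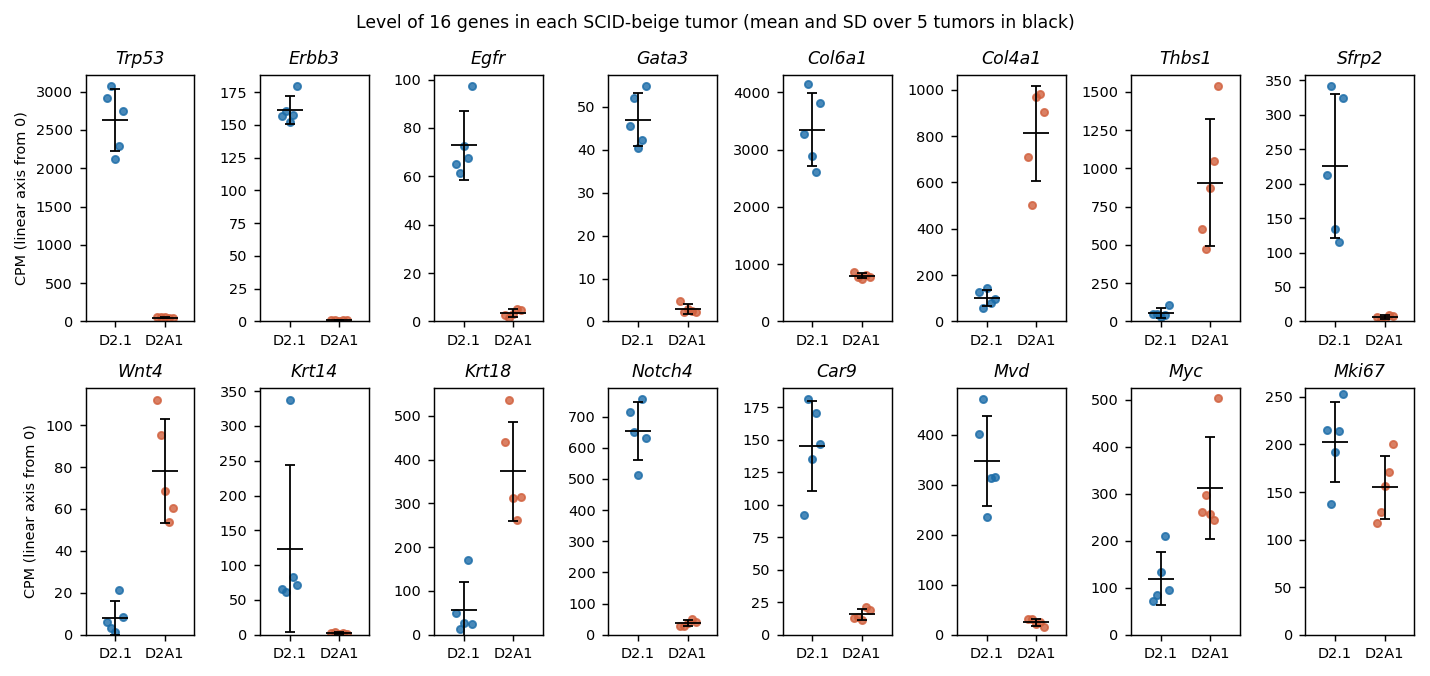
Level of 16 genes in each of the 10 tumors (y axis CPM, linear and from 0, 1 panel per gene, 1 point per tumor, bars mean and SD, n = 5 per group). The groups separate in the panels of genes called higher or lower, and the proliferation antigen Mki67, which was not called, has overlapping groups.

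Genes of antigen presentation were mostly higher in D2.1 tumors. Of 19 genes of the class I pathway, 15 were higher and 1 lower in D2.1 tumors (median log2 fold change 1.34), beside 17.2% and 14.8% of all genes tested. Of the class II genes, 7 of 11 tested were higher and 0 lower (median 2.75). Class I molecules are built from an H2 heavy chain and B2m and are loaded in the endoplasmic reticulum with peptides cut by the proteasome. Class II chains are escorted by Cd74 and loaded with the help of H2-DM, under the master regulator Ciita.

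Promoter sequences of genes from both pathways are shown because the known regulators of the H2 genes act through short elements close to the start site. A conserved Y box, searched as TGATTGG or CCAATCA on both strands, belongs to the module through which Ciita and Nlrc5 act. The interferon response letters searched were AGTTTCAC followed by TT, and their reverse complement. Each line gives the 170 bases before the RefSeq start in GRCm38.p6, 5′ to 3′ on the gene's strand, with matches in capitals.
H2-Eb1 (chr17:34305697-34305866, plus strand): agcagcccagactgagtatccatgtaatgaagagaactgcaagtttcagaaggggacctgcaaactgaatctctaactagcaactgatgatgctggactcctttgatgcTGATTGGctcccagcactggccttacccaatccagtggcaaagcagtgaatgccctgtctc
H2-Aa (chr17:34287824-34287993, minus strand): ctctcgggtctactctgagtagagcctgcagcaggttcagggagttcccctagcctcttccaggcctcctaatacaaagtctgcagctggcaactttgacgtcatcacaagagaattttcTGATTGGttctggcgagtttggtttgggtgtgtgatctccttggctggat
H2-DMb1 (chr17:34153021-34153190, plus strand): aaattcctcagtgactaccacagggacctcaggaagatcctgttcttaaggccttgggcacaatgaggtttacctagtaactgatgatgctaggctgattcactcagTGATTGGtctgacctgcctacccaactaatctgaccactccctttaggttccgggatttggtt
H2-K1 (chr17:34000348-34000517, minus strand): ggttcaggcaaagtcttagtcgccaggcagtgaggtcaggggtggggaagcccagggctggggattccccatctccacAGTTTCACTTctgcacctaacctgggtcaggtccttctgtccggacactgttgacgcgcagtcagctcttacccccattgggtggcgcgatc
H2-D1 (chr17:35262924-35263093, plus strand): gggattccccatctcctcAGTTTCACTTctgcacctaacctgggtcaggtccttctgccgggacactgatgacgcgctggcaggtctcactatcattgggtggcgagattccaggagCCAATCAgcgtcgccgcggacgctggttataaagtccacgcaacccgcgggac
H2-Q7 (chr17:35438985-35439154, plus strand): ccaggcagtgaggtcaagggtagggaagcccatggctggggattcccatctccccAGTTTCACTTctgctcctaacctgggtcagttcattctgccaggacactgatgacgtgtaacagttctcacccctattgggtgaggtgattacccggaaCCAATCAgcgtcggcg

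Y box letters were in 2009 of 32851 promoter windows of this length (6.12%), and the interferon letters in 32 (0.0974%). RefSeq gave a sequence for 16 of the 19 class I genes, of which 7 held the Y box letters and 5 the interferon letters, and for 9 of the 12 class II genes, of which 5 held the Y box letters and 0 the interferon letters. H2-K1 had the interferon letters and no Y box match in its window. These matches are letters in a reference of the C57BL/6J strain and show no binding.

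Among class I heavy chains, H2-K1 stood at 104, 140.1, 65.6, 164 and 130.4 CPM in D2.1 tumors and 47.4, 52.1, 45.6, 42.8 and 32.2 CPM in D2A1 tumors. H2-D1 stood at 1139, 1659, 618, 1478 and 1112 CPM and 394, 562, 389, 433 and 363 CPM. The groups did not overlap for either gene, and the means were 2.74-fold and 2.81-fold higher (edgeR, adjusted p = 2.6e-04 and 3.1e-04). The nonclassical gene H2-Q7 stood at 32.8, 59.3, 12.02, 78.6 and 33.2 CPM against 0.908, 1.44, 0.822, 1.11 and 0.124 CPM, a 49.0-fold higher mean. H2 genes are near-identical copies, and the reference alleles are not those of BALB/c-type mice, so the authors' counting could move reads among H2-K1, H2-D1, H2-Q4, H2-Q6 and H2-Q7.

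Most genes of the machinery around the heavy chains were also higher. The light chain B2m differed by a log2 fold change of 0.94 (SE 0.19), the transporter subunits Tap1 and Tap2 by 1.42 and 1.0, the loading factor Tapbp by 1.42 and the immunoproteasome subunits Psmb8 and Psmb9 by 1.34 and 1.95. Nlrc5, the transactivator of class I genes, ranged over 34.5 to 50.9 CPM in D2.1 tumors and 1.40 to 15.6 CPM in D2A1 tumors. Tapbpl, a second peptide editor related to Tapbp, was the gene of the class I list that was lower (log2 fold change -1.77), and Pdia3, Erap1 and Psmb10 were not called.

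In the class II pathway, the chain H2-Eb1 stood at 298, 392, 107, 92.4 and 204 CPM in D2.1 tumors and 27.8, 36.1, 28.8, 25.3 and 17.4 CPM in D2A1 tumors. The chains H2-Aa (log2 fold change 2.92) and H2-Ab1 (2.75), the escort Cd74 (3.02) and the loading factor H2-DMb1 (1.99) were also higher. H2-Ob, a brake on loading found in B cells and dendritic cells, differed by a log2 fold change of 4.10. Ciita ranged over 7.95 to 28.1 CPM in D2.1 tumors and 1.86 to 3.20 CPM in D2A1 tumors, without overlap. H2-DMa and the lysosomal enzymes Ctss, Lgmn and Ifi30 were not called. The dendritic cell and B cell marker sums given above were also higher in D2.1 tumors, whereas the macrophage sums overlapped. The part of these cells in the class II difference was not tested.

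Interferon-stimulated genes had 18 of 46 members higher and 1 lower, with a median of 0.67, and 3 of those higher (Psmb8, Psmb9 and Tap1) are also class I genes. The guanylate-binding GTPases Gbp5 (log2 fold change 2.59) and Gbp2 (1.55), the antiviral factor Trim30a (1.55) and the transcription factor Irf1 (0.68) were higher. Bst2, the surface tether of enveloped viruses, was the gene that was lower (log2 fold change -1.0), and its call was lost without D2.1 tumor 1, 2, 3 or 5 or D2A1 tumor 1, 2, 3 or 4 (edgeR, highest adjusted p = 0.0981). With single tumors left out, 15 to 23 genes of the list were higher.

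Chemokines and cytokines went in both directions, with 10 of 42 higher, 3 lower and a median of 0.01. Cx3cl1, the membrane-bound chemokine that attracts NK cells and monocytes, stood at 1238, 1474, 438, 489 and 1221 CPM in D2.1 tumors and 117, 111, 101, 90.5 and 97.8 CPM in D2A1 tumors, a 9.41-fold higher mean. D2.1 tumors 3 and 4 were the lowest of their group for Cx3cl1, as they were for H2-Eb1, and still lay above all D2A1 tumors. Il15, the survival cytokine of NK cells, ranged over 9.02 to 20.2 CPM against 2.33 to 5.01 CPM. Ccl5 (log2 fold change 1.69), Ccl8 (1.95), Ccl22 (2.06), the neutrophil attractant Cxcl5 (2.96) and Cxcl9 (1.18), which attracts activated T cells, were higher. Cxcl14 (log2 fold change -3.80) was lower in every setting that left out 1 tumor. The cytokine Il6 (log2 fold change -2.14) lost its call without D2.1 tumor 1, 2, 4 or 5 or D2A1 tumor 3, 4 or 5 (edgeR, highest adjusted p = 0.147). Cxcl12 (log2 fold change -1.26) lost its call without D2.1 tumor 2 or D2A1 tumor 5 (edgeR, highest adjusted p = 0.0681). The count lower was 1 without D2.1 tumor 2 or without D2A1 tumor 5, 7 without D2.1 tumor 3 and 6 without D2.1 tumor 4.

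Genes of immune suppression also divided. Arg1 and Nos2, which consume arginine in myeloid cells, differed by a log2 fold change of -4.05 and -3.17, and the prostaglandin enzymes Ptgs2 and Ptges by -2.83 and -1.85, all lower in D2.1 tumors. Arg1 ranged over 0.601 to 8.66 CPM in D2.1 tumors and 33.2 to 65.6 CPM in D2A1 tumors. The T cell ligands Icosl (log2 fold change 1.62), Cd276 (1.28), Vsir (0.57) and Cd86 (0.76) and the signal against engulfment, Cd47 (0.68), were higher. The call for Cd86 was lost without D2.1 tumor 2 or 3 or D2A1 tumor 1 or 4 (edgeR, highest adjusted p = 0.0625). In all, 5 of 21 genes of the list were higher and 8 lower, with a median of 0.00. Of 17 complement genes, C3 (log2 fold change 1.11), C4b (1.04) and the receptor C3ar1 (0.61) were higher, and the inhibitors Clu (-3.62) and Cd59a (-2.51) were lower. Among all genes tested, 17.2% were higher and 14.8% lower.

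Trp53, the gene of the p53 tumor suppressor, differed strongly and is an abundant gene in D2.1 tumors. Its level was 2916, 3072, 2118, 2292 and 2749 CPM in D2.1 tumors and 57.4, 56.4, 56.0, 39.4 and 41.1 CPM in D2A1 tumors, a 52.5-fold higher mean with a log2 fold change of 5.71 (SE 0.21; edgeR, adjusted p = 1.1e-09). The lowest D2.1 tumor was far above the highest D2A1 tumor. A like difference was measured in BALB/c tumors (5.48) and in culture (4.48). Of 26 genes on the list of p53 targets, which holds Trp53 itself, 4 were higher and 3 lower, with a median of 0.28, where 17.2% of all genes were higher and 14.8% lower. In culture 15 of 25 were higher and 1 lower (median 0.67), where 24.2% of all genes were higher and 20.7% lower. Eda2r (log2 fold change 4.53), Sesn1 (1.67) and Phlda3 (1.08) were higher, whereas the cell cycle inhibitor Cdkn1a (-0.79), the death effector Bax (-0.78) and the death receptor Tnfrsf10b (-0.69) were lower. The files hold no protein and no sequence of the Trp53 transcript.

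Mitosis genes differed little. Of 26 mitosis genes, Prc1 (log2 fold change 0.80) was higher and Aurka (-0.68) and Ube2c (-0.77) were lower, with a median of -0.16, and these calls depended on single tumors. Prc1 lost its call without D2.1 tumor 1, 3, 4 or 5 or D2A1 tumor 1, 2, 3 or 4 (edgeR, highest adjusted p = 0.106). The count lower was 0 without D2.1 tumor 5, 1 without D2.1 tumor 1, D2.1 tumor 2 or D2A1 tumor 2, and 4 without D2.1 tumor 4. Mki67, the antigen of cycling cells, stood at 215.04, 138, 192, 214.1 and 253 CPM in D2.1 tumors and 118, 129, 157, 171 and 200.2 CPM in D2A1 tumors (log2 fold change 0.38, SE 0.19; edgeR, adjusted p = 0.135), and the groups overlapped. Of 31 DNA replication genes, 8 were lower, beside 14.8% of all genes, and 2 higher (Orc6, 0.74, and Gins3, 0.58), among the lower the ribonucleotide reductase subunit Rrm2 (log2 fold change -1.37), Tyms (-0.87) and the helicase subunit Mcm6 (-0.67). Without D2.1 tumor 4 the number lower was 13. Gins3 lost its call without D2.1 tumor 2, 3 or 5 or D2A1 tumor 1, 2 or 4 (edgeR, highest adjusted p = 0.0868).

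Cyclins and inhibitors of the G1 phase showed exchanges between relatives. Ccnd1 ranged over 316 to 606 CPM in D2.1 tumors and 142 to 209.5 CPM in D2A1 tumors, while Ccnd2 ranged over 23.8 to 35.5 CPM and 97.5 to 179.7 CPM. Ccnd1 was thus higher and Ccnd2 lower in D2.1 tumors, without overlap in either case. Ccne1 was lower (log2 fold change -1.12) and the retinoblastoma relative Rbl2 higher (1.10). Of 20 genes of G1 control, 6 were higher and 3 lower. The inhibitor Cdkn1b was not called (0.28, SE 0.19; edgeR, adjusted p = 0.273).

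Myc, the growth-promoting transcription factor, was lower in D2.1 tumors, at 72.1, 85.7, 133, 210.9 and 94.7 CPM against 261, 296, 258, 243 and 503 CPM. The mean was 2.62-fold lower (edgeR, adjusted p = 0.00257), and D2A1 tumor 5 stood furthest from its group. Of 24 genes of the MYC network, 9 were lower and 3 higher (median -0.35). Those lower include the polyamine enzyme Odc1 (log2 fold change -1.14), the pyrimidine enzyme Cad (-1.02) and the nucleolar proteins Nop56 (-0.89), Npm1 (-0.78) and Ncl (-0.72). The 3 higher were Mlxipl, Mxd4 and Mxd1, and none was called without D2.1 tumor 2, while 1 was called without D2.1 tumor 1 or D2A1 tumor 1, 2, 3 or 4.

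Of the 4 receptors of the ERBB family, 3 were higher in D2.1 tumors, and Erbb4 had 0 counts in all 10 tumors. Erbb3, a receptor for neuregulins that signals through its partners, stood at 157, 161, 153, 158 and 179 CPM in D2.1 tumors and 1.40, 1.03, 0.411, 1.23 and 0.866 CPM in D2A1 tumors, a 163-fold higher mean (log2 fold change 7.34, SE 0.26; edgeR, adjusted p = 1.0e-09). Egfr stood at 65.1, 61.3, 72.6, 67.7 and 97.3 CPM and 2.65, 1.51, 2.95, 5.12 and 4.89 CPM, 21.3-fold higher, and neither gene's groups overlapped. Their partner Erbb2 differed by a log2 fold change of 2.63. The ligands were mixed: Nrg1, which binds Erbb3 (log2 fold change 2.71), and the Egfr ligand Btc (3.78) were higher, while the Egfr ligands Ereg (-4.95) and Tgfa (-1.92) were lower. Ereg stood at 0 to 1.10 CPM in D2.1 tumors and 3.64 to 15.9 CPM in D2A1 tumors.

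Other growth factor genes also changed sides between ligand families. The receptors Ntrk3 (log2 fold change 6.22), Ret (3.06), Pdgfra (2.98) and Fgfr3 (2.07) were higher, while Gdnf, which signals through Ret, was lower (-3.06). Of the vessel growth factors, Vegfc (log2 fold change 3.64) and Vegfd (3.48), which act on lymphatic vessels, were higher, and Vegfa (-0.99) and Vegfb (-0.61), which act on blood vessels, were lower, as was the lymphatic receptor Flt4 (-2.36). The endothelial sum and the blood vessel ligands were both lower in D2.1 tumors, and whether they are related was not tested. In all, 19 of 52 growth factor and receptor genes were higher and 11 lower (median 0.26). Insulin-like growth factor binding proteins split, with Igfbp5 (log2 fold change 4.96) and Igfbp6 (3.71) higher and Igfbp3 (-2.60), Igfbp4 (-2.09) and Igfbp7 (-1.85) lower, beside the receptor Igf2r, which was higher (2.16).

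Of the Notch receptors, Notch4 stood at 714, 651, 514, 756 and 633 CPM in D2.1 tumors and 28.1, 28.2, 38.8, 51.9 and 42.2 CPM in D2A1 tumors, a 17.3-fold higher mean with no overlap. Notch1 (log2 fold change 2.42), the target gene Hey1 (3.55) and the Notch-modifying enzyme Rfng (0.82) were higher, as was the target Hey2 (1.57), whose call was lost without D2.1 tumor 5 or D2A1 tumor 1, 2, 3 or 5 (edgeR, highest adjusted p = 0.073). The ligands Dll4 (log2 fold change -2.13) and Jag2 (-1.48) were lower, with the feedback inhibitor Nrarp (-0.62), whose call was lost without D2.1 tumor 1, 2 or 3 (edgeR, highest adjusted p = 0.0556). Of 18 genes, 5 were higher and 3 lower (27.8% and 16.7%), beside 17.2% and 14.8% of all genes tested.

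In the Wnt pathway, ligands, receptors and secreted antagonists were exchanged rather than shifted together. Wnt4, a ligand of progesterone-driven mammary growth, stood at 6.13, 3.15, 1.10, 21.5 and 8.31 CPM in D2.1 tumors and 112, 95.5, 68.4, 53.9 and 60.4 CPM in D2A1 tumors, 9.70-fold lower. Wnt5a (log2 fold change 3.79), Wnt10b (2.76), Wnt10a (1.37) and Wnt9a (0.96) were higher, with the receptors Fzd8 (4.34), Fzd4 (1.08) and Lgr6 (3.0). Fzd7 (log2 fold change -1.14) and Fzd2 (-1.0) and the ligand Wnt7b (-0.66) were lower. The antagonist Sfrp2 stood at 212.3, 341, 134, 115 and 324 CPM in D2.1 tumors and 5.80, 2.68, 4.25, 9.18 and 8.29 CPM in D2A1 tumors, 37.3-fold higher. Dkk3 (log2 fold change 4.32) and Apcdd1 (2.96) were also higher, and the Wnt deacylase Notum (-1.31) was lower. In culture the mean of Sfrp2 was 1.14 CPM in D2.1 and 0.0178 CPM in D2A1 cells, and that of Dkk3 2.57 and 0 CPM. The means in D2.1 tumors were 225 CPM for Sfrp2 and 151 CPM for Dkk3. The part of host cells in these tumor levels was not tested. The feedback gene Nkd2 differed by a log2 fold change of -2.64. Counts were 12 higher and 5 lower of 36 pathway genes, and 3 and 2 of 9 antagonists.

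In the TGF-beta and BMP pathways, the receptors Tgfbr2 (log2 fold change 1.23) and Tgfbr3 (1.32), the signal transducer Smad3 (1.17), the ligand Tgfb3 (1.27), the activin antagonist Fst (1.55) and the target Tgfbi (1.61) were higher. The ligand Bmp4 (log2 fold change -2.02), its antagonist Grem1 (-3.03), the decoy receptor Bambi (-2.27) and the latency protein Ltbp1 (-2.44) were lower. The list had 12 of 37 genes higher and 7 lower (median 0.38).

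Matrix genes went in both directions. Fibrillar collagens form the fibers of stroma and cartilage, whereas collagen IV, laminins and nidogens form the basement membrane sheet under epithelium and around vessels. Of 27 genes of fibrillar collagen and its processing, 12 were higher and 6 lower in D2.1 tumors (median 0.40). Of 20 basement membrane genes, 2 were higher and 9 lower (median -1.15). The difference between these lists was not tested.

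Col3a1 ranged over 3016 to 8015 CPM in D2.1 tumors and 365 to 1132 CPM in D2A1 tumors, and Col1a1 over 2416 to 5459 and 739 to 1775 CPM. The collagen chaperone Serpinh1 (log2 fold change 0.59), the hydroxylase P4ha3 (3.08) and the minor chains Col5a3 (3.70) and Col27a1 (4.16) were higher, and Col5a2 (-2.06), Col11a2 (-2.16) and the enhancer of collagen cleavage Pcolce2 (-5.76) were lower. Without D2.1 tumor 2 or without D2A1 tumor 4 the number lower was 3. Col1a1 and Col3a1, which are also on the fibroblast marker list, were higher in D2.1 culture as well. The mean of Col3a1 was 20.7 CPM in D2.1 culture and 0.400 CPM in D2A1 culture, beside 4929 CPM in D2.1 tumors. The share of host fibroblasts in the tumor values was not tested.

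Of the basement membrane genes, Col4a1 stood at 127, 57.8, 143, 81.3 and 96.2 CPM in D2.1 tumors and 709, 501, 967, 980.3 and 905 CPM in D2A1 tumors, 8.04-fold lower. Col4a2 (log2 fold change -3.33), the linkers Nid1 (-1.87) and Nid2 (-3.11) and the laminin chains Lama5 (-2.05), Lama2 (-1.70) and Lamc3 (-3.31) were lower as well, and Lama4 (2.14) and Col18a1 (1.16) were higher. Endothelial markers were also lower in D2.1 tumors, by the sums given above, and their part was not tested. In culture, 5 of 15 genes of this list were higher and 5 lower, with a median of 0.12, beside 24.2% and 20.7% of all genes. Col4a1 was lower in D2.1 cells there too, at 0.226 against 561 CPM.

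Thbs1, the matrix protein thrombospondin-1, stood at 46.9, 52.0, 27.5, 44.1 and 109 CPM in D2.1 tumors and 607, 474, 869.7, 1045 and 1537 CPM in D2A1 tumors, 16.2-fold lower, and its culture difference was 0.08 (edgeR, adjusted p = 0.856). Col6a1 stood at 3270.3, 4143, 2884, 2607 and 3819 CPM and 867, 775, 748, 818 and 779 CPM, 4.196-fold higher, with Col6a2 (log2 fold change 2.58) and Col6a3 (1.90) beside it. The small proteoglycans Dcn (log2 fold change 3.47), Lum (2.95) and Ogn (2.68) and the matricellular proteins Postn (2.92) and Tnc (1.55) were higher. Bgn, a relative of Dcn, was lower (log2 fold change -2.48), as were Fbln1 (-3.88) and Fbn1 (-1.70) and the growth factor-like proteins Ccn1 (-2.12) and Ccn2 (-1.37). This list had 15 genes higher and 12 lower of 44.

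Among integrins, Itga6 (log2 fold change 1.30), Itgb4 (0.98) and Itga7 (3.06) were higher and Itga3 (-2.52), Itgb3 (-1.73), Itgb5 (-0.96) and Itgb1 (-0.75) lower. Of 18 genes, 6 were higher and 5 lower, and without D2.1 tumor 5 the number higher was 3. The proteases Mmp2 (log2 fold change 1.72), Mmp9 (3.01) and Adamts5 (1.77) and the inhibitors Timp2 (1.57) and Timp3 (1.53) were higher, and Mmp13 (-2.56), like Mmp10, was lower. Cartilage and bone genes also went in both directions: Col2a1 and its activators Sox9 (log2 fold change 2.40) and Sox5 (3.61) were higher, while the late cartilage collagen Col10a1 (-2.56), the bone matrix protein Ibsp (-6.85) and the bone-forming factor Dlx5 (at least 71.1-fold lower, at 0 in D2.1 tumors) were lower. Runx3 (log2 fold change 1.27) was higher. In all, 5 of 24 were higher and 8 lower.

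**Figure D3:**
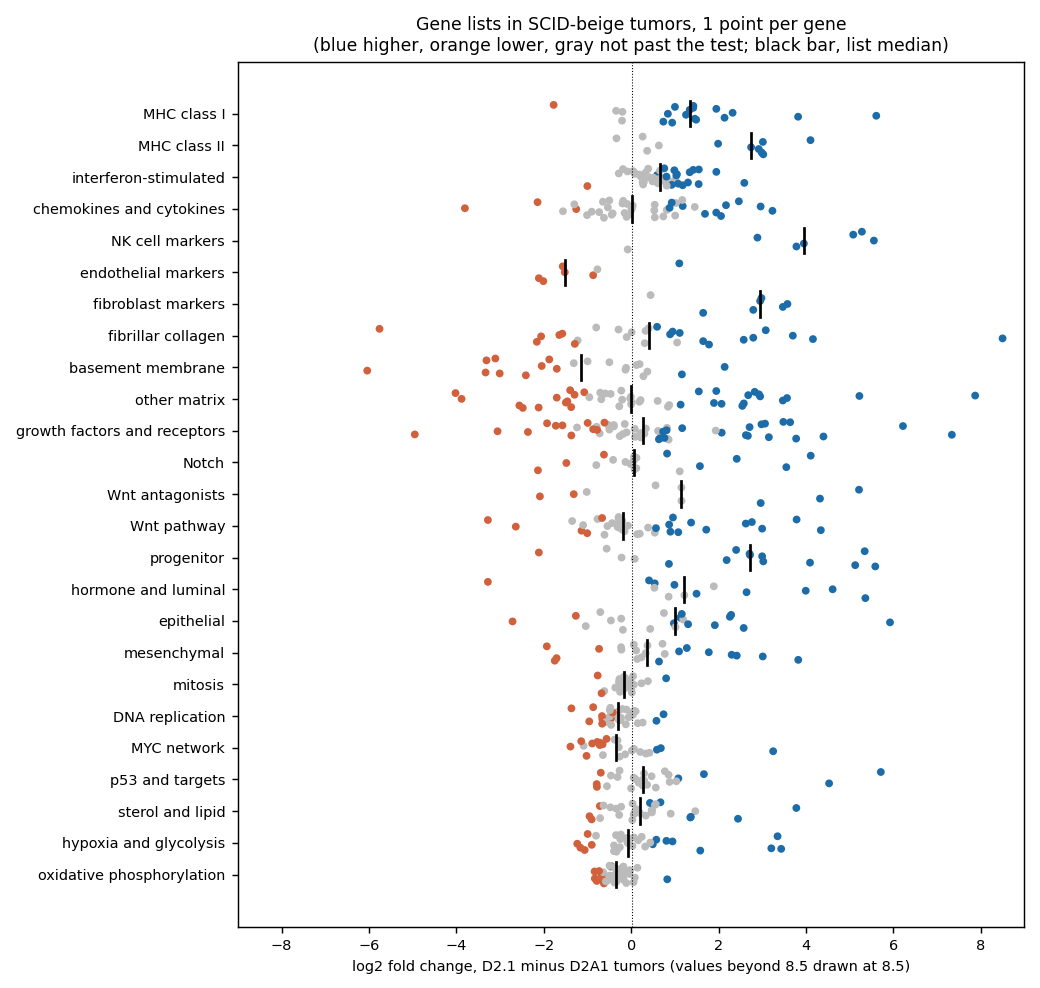
Log2 fold change (D2.1 minus D2A1, x axis) of each tested gene of 25 lists (rows), with genes called higher in blue, called lower in orange and others in gray, and the black bar at the median. Class I and class II genes lie mostly right of 0 and basement membrane genes mostly left, while most other lists hold both.

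Keratins differed in opposite directions. Krt14, the keratin of basal and myoepithelial cells, stood at 65.1, 61.9, 338, 83.5 and 71.0 CPM in D2.1 tumors and 2.86, 3.57, 0.617, 2.095 and 1.05 CPM in D2A1 tumors, 60.7-fold higher, and D2.1 tumor 3 was the highest of its group. Krt18, a keratin of luminal cells, stood at 50.2, 12.5, 26.2, 169.8 and 25.3 CPM and 440.1, 536, 313, 262 and 313 CPM, 6.56-fold lower, with D2.1 tumor 4 the highest of its group. Its dimer partner Krt8 was higher (log2 fold change 1.12), and it ranged over 278 to 939 CPM in D2.1 tumors and 164 to 319 CPM in D2A1 tumors, so epithelial keratin RNA was present in all 10 tumors. The adhesion protein Epcam (log2 fold change 1.92), the tight junction protein Cldn1 (2.58) and the desmosome proteins Pkp1 (2.26) and Pkp3 (2.29) were higher and Pkp2 (-1.27) lower. Of 20 epithelial genes, 9 were higher and 2 lower, and of 22 mesenchymal genes, 8 were higher and 4 lower. Fap (log2 fold change 3.82), Prrx1 (2.30) and the repressor Snai2 (1.78) were higher and Foxc1 (-1.71) was lower. Some genes of both lists were thus higher in the same tumors, while 9 epithelial and 10 mesenchymal genes were not called. Fibroblast marker sums were also higher in D2.1 tumors, and the part of host fibroblasts in the mesenchymal genes was not tested. Without D2A1 tumor 4 the number of mesenchymal genes lower was 1.

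Hormone and luminal genes were higher in 8 of 13 cases and lower in 1, the latter being Wnt4. Gata3, the luminal fate factor, stood at 45.4, 52.0, 40.5, 42.2 and 54.9 CPM in D2.1 tumors and 4.82, 2.20, 3.02, 2.47 and 2.23 CPM in D2A1 tumors, a 15.96-fold higher mean with no overlap. The estrogen receptor Esr1 ranged over 1.86 to 8.54 CPM against 1.12 to 2.66 CPM and the estrogen target Greb1 over 1.20 to 12.2 CPM against 0 to 0.616 CPM. Progenitor genes had 11 of 15 higher and 1 lower (median 2.71). Aldh1a3 (log2 fold change 5.59), the growth factor Ptn (5.35), Bcl11b (5.13), Cd200 (4.09) and Nes (2.72) were among those higher, and the protein C receptor Procr (-2.11) was the gene that was lower.

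Of 48 developmental transcription factors tested, 22 were higher and 12 lower. Those higher include Sox21 (at least 13.2-fold, at 0 in D2A1 tumors), Lhx9 (log2 fold change 7.48), the eye factor Pax6 (6.29) and Irx3 (5.90), and those lower include Zic1 (at least 10.3-fold, at 0 in D2.1 tumors), Tbx3 (-3.68) and Tbx2 (-2.57). The hedgehog pathway factors took opposite sides, with Gli1 (log2 fold change 3.08) higher and Gli2 (-4.17) lower. Of 20 Hox genes, 7 were higher, among them Hoxc6 (log2 fold change 4.11) and Hoxa9 (3.96), and 2 were lower, Hoxb8 (-2.30) and Hoxb7 (-1.34). Hoxb7 lost its call without D2.1 tumor 2, 3, 4 or 5 or D2A1 tumor 1, 2, 3, 4 or 5 (edgeR, highest adjusted p = 0.113).

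Fetal genes were exchanged as well. Lin28b, which blocks let-7 maturation, ranged over 1.26 to 2.49 CPM in D2.1 tumors and was at 0 in the D2A1 tumors, while Igf2bp1 was present in D2A1 tumors alone among these 10. The imprinted genes Meg3 (log2 fold change -2.42), Mest (-2.14) and Grb10 (-1.55) were lower and Peg13 (3.62) and Igf2r were higher. Of 28 germline genes, 5 had enough counts to test, of which 0 were higher and 3 lower. Morc1, which silences transposons in male germ cells, was at 0 in the D2.1 tumors and at 16.7 to 27.0 CPM in D2A1 tumors, and Piwil4 (log2 fold change -1.09) and Rhox5 (-0.64) were lower. Piwil4 lost its call without D2.1 tumor 1, 2 or 5 or D2A1 tumor 3 or 4 (edgeR, highest adjusted p = 0.101). Rhox5 lost its call without D2.1 tumor 1 or 5 (edgeR, highest adjusted p = 0.0696).

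Genes of metabolic lists were called in both directions. Mvd, which makes isopentenyl diphosphate for sterols, stood at 402, 471, 236, 314 and 315 CPM in D2.1 tumors and 31.8, 32.1, 21.5, 24.8 and 16.3 CPM in D2A1 tumors, 13.7-fold higher, and the citrate-cleaving enzyme Acly differed by a log2 fold change of 2.45. Of 29 sterol and lipid synthesis genes, 6 were higher and 3 lower (20.7% and 10.3%), beside 17.2% and 14.8% of all genes tested. The number higher was 10 without D2A1 tumor 5, and the number lower 5 without D2.1 tumor 3 or 4. In culture the same list had 25 of 29 higher and 0 lower, beside 24.2% and 20.7% of all genes there. In BALB/c tumors it had 4 higher and 8 lower, beside 16.8% and 15.8% of all genes.

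Among hypoxia and glycolysis genes, the carbonic anhydrase Car9 stood at 92.3, 182, 135, 170.3 and 147 CPM in D2.1 tumors and 13.2, 13.95, 11.1, 21.1 and 19.11 CPM in D2A1 tumors, 9.25-fold higher. Car12 (log2 fold change 3.43) and the lactate exporter Slc16a3 (3.35) were higher, but Hk2 (-1.23), Egln3 (-1.16) and Ankrd37 (-1.06) were lower, for 8 higher and 5 lower of 32. Without D2.1 tumor 4 the number lower was 9, and without D2A1 tumor 1 or 3 the number higher was 5. Of 44 nuclear genes of the respiratory chain, 9 were lower and 1, Cox6c (log2 fold change 0.83), was higher, with small differences such as Cox7b (-0.83) and Cox4i1 (-0.79). This count was unstable, at 15 lower without D2.1 tumor 4, 16 without D2A1 tumor 5 and 5 without D2.1 tumor 5, and Cox6c was not called without D2.1 tumor 2 or 4.

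Targets of the oxidant sensor Nrf2 had 3 genes higher and 7 lower of 21. The quinone reductase Nqo1 (log2 fold change -1.31) and the heme oxygenase Hmox1 (-1.34) were lower and the glutathione transferase Gsta4 (3.04) higher. In the ATF4 stress and serine list, 5 of 23 genes were higher, among them the stress factors Nupr1 (log2 fold change 1.39), Chac1 (1.09) and Ddit3 (0.79), and 2 were lower, Phgdh (-0.96), the first enzyme of serine synthesis, and the amino acid carrier Slc7a5 (-0.74). Among all genes tested, 17.2% were higher and 14.8% lower. In the ATF4 list the number higher was 3 without D2.1 tumor 4 or D2A1 tumor 1, and the number lower was 1 without D2.1 tumor 3 or 5.

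A list of genes linked to tumor cell dormancy and retinoid signals had 13 of 25 members higher and 7 lower (median 0.66). The dormancy factor Nr2f1 (log2 fold change 1.89), the growth arrest gene Gas1 (2.13), the retinoid proteins Crabp2 (2.67) and Cyp26b1 (1.95) and Bhlhe41 (1.35) were higher, and Thbs1, Bmp4 and the retinol receptor Stra6 (-4.14) were lower. Without D2A1 tumor 4 the number lower was 4. Of 30 genes that the study itself names for tumors, 26 were tested, 16 higher and 3 lower (median 1.11). That list was chosen on these samples and is not independent evidence of its direction. Of that list, Cd44 (log2 fold change 0.64) lost its call without D2.1 tumor 3, 4 or 5 or D2A1 tumor 1, 2, 3 or 4 (edgeR, highest adjusted p = 0.115). Id4 (log2 fold change 2.19) did so without D2.1 tumor 3 or D2A1 tumor 1, 2 or 3 (edgeR, highest adjusted p = 0.21). Twist2 (log2 fold change -1.93) did so without D2.1 tumor 3 or D2A1 tumor 1, 2 or 4 (edgeR, highest adjusted p = 0.0753).

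The same line difference was measured in 8 BALB/c tumors, where 32.6% of 14953 genes were called, and in 6 cultures, where 44.9% of 12489 were. In BALB/c tumors 16.8% of genes were higher and 15.8% lower in D2.1, and in culture 24.2% and 20.7%. The 3 comparisons share no library. Of the genes called in SCID-beige tumors, 67.6% were called in the same direction in BALB/c tumors and 49.8% in culture. These shares are over all 4607 calls, of which 4561 had enough counts for a test in BALB/c tumors and 3807 in culture. In culture, 69 genes higher and 142 genes lower in D2.1 tumors were called in the opposite direction. Class I genes had 11 of 19 higher and 1 lower in BALB/c tumors (median 0.95) and 11 of 18 higher and 1 lower in culture (median 1.06). Interferon genes had 5 of 46 higher in BALB/c tumors and 23 of 44 in culture. Basement membrane genes had 4 higher and 8 lower in BALB/c tumors. Mitosis genes had 12 lower in BALB/c tumors, DNA replication genes 16, and NK markers 6 of 7 higher. None of these differences between hosts was tested for a list.

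Single genes differ in how far the tumor difference is also found in culture. Erbb3 differed by a log2 fold change of 5.81 in BALB/c tumors and 4.67 in culture, and Egfr by 3.90 and 5.52, both in the direction of the SCID-beige tumors. Krt18 was lower in D2.1 tumors of both hosts (-3.49 in BALB/c) but higher in D2.1 culture (2.43; edgeR, adjusted p = 7.3e-04). Cldn1 went from 2.58 in SCID-beige tumors to -2.07 in culture, Nqo1 from -1.31 to 0.99 and Dll4 from -2.13 to 3.32. These 3 genes and Krt18 were picked after their values were seen, from the genes with opposite directions.

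**Figure D4:**
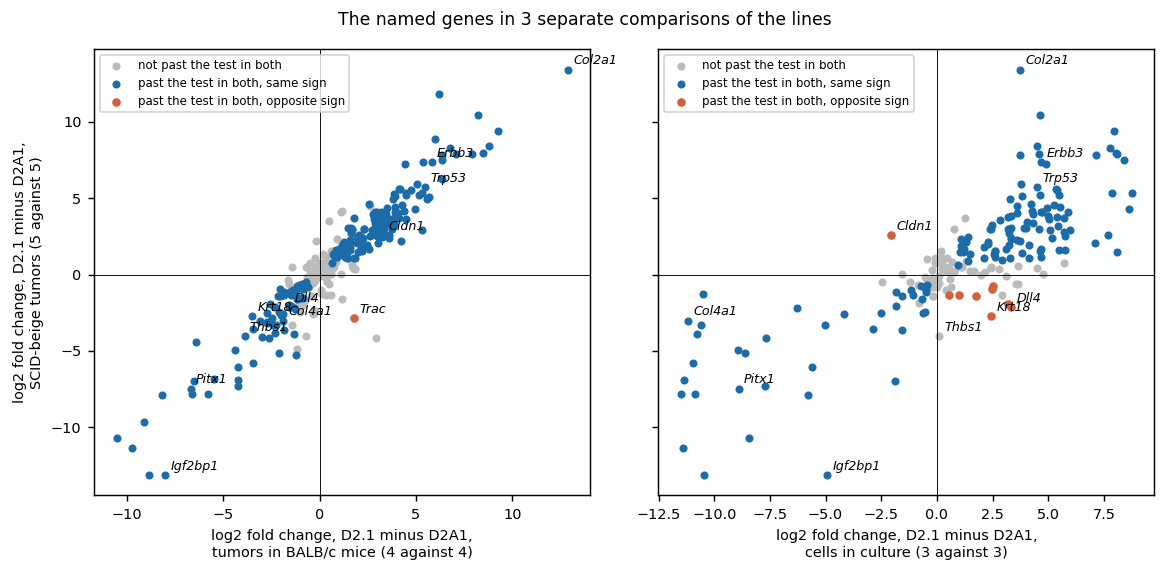
Log2 fold change (D2.1 minus D2A1) of the named genes in SCID-beige tumors (y axis) against BALB/c tumors and against culture (x axes), 1 point per gene. Blue marks genes called in both comparisons of a panel in the same direction, orange those called in both in opposite directions, and gray the others. Krt18 lies below 0 in both tumor comparisons (-3.49 in BALB/c mice) and at 2.43 in culture.

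A test of whether the line difference itself depends on the host was past the threshold for 0.0187% of 16036 genes, D630003M21Rik, Crmp1 and Trac (edgeR, adjusted p = 0.0173 for each). Crmp1, a protein of axon guidance, ranged over 0 to 0.0639 CPM in D2.1 and 0.279 to 2.89 CPM in D2A1 tumors of SCID-beige mice, and over 1.65 to 2.34 CPM and 0.528 to 1.37 CPM in BALB/c mice. Its log2 line difference was higher by 6.67 (SE 1.03) in BALB/c than in SCID-beige tumors, that of Trac by 4.61 (SE 0.71) and that of D630003M21Rik by 2.39 (SE 0.35). Unadjusted p was under 0.05 for 1355 genes, and DESeq2 called 105. The edgeR count was 0 without D2.1 tumor 3 or 4 or D2A1 tumor 1 or 4 of the BALB/c host, 1 without D2.1 tumor 2 of the SCID-beige host or D2A1 tumor 3 of the BALB/c host, 8 without D2.1 tumor 2 of the BALB/c host and 12 without D2.1 tumor 4 of the SCID-beige host. Leaving out single libraries ended the call in 4 fits for D630003M21Rik and in 7 each for Crmp1 and Trac (edgeR, highest adjusted p = 0.0744).

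The calls were not spread evenly over the genome. Over chromosome 10 the median log2 fold change was 0.50, with 243 of 625 genes higher and 26 lower, and over chromosome 15, which holds Myc and Krt18, it was 0.39, with 188 of 521 higher and 49 lower. The lowest median was that of chromosome 12, at -0.25. On chromosome 10 the median was 0.41 in BALB/c tumors and 0.52 in culture, and on chromosome 15 it was 0.37 and 0.61. Of 395 windows of 5 Mb with at least 10 protein-coding genes, with a median of 0.03, the 4 highest were on chromosome 15, from 35, 30, 70 and 65 Mb, with medians of 1.06, 0.96, 0.89 and 0.82. The 4 lowest were on chromosome 8 from 60 Mb (-0.73) and 40 Mb (-0.70), chromosome 18 from 55 Mb (-0.69) and chromosome 5 from 20 Mb (-0.63).

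A stretch of chromosome 8 from 75 to 95 Mb, picked after its values were seen, had 137 tested genes, of which 80 were higher and 4 lower, with a median of 0.74. Its median was 0.83 in BALB/c tumors but -0.12 over 121 genes in culture, where 26 were higher and 27 lower. It holds Nlrc5 (chr8:94434356-94527272), Cx3cl1 (chr8:94772009-94782427), Calr, Orc6, Il15, Ccl22, Irx3 and Mmp2. The neighboring 94 genes from 70 to 75 Mb went the other way, with 5 higher, 46 lower and a median of -0.56, beside 0.07 in culture. The files hold no DNA copy number.

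**Figure D5:**
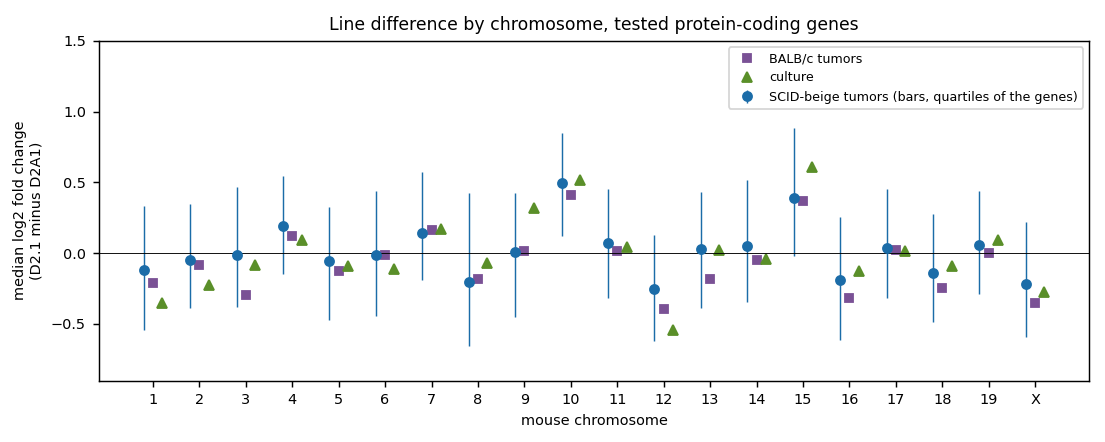
Median log2 fold change (D2.1 minus D2A1, y axis) of the tested genes of each chromosome (x axis) in SCID-beige tumors (points with bars from the lower to the upper quartile), BALB/c tumors (squares) and culture (triangles). Chromosomes 10 and 15 lie highest in SCID-beige tumors, at 0.50 and 0.39.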

How the data were processed

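RNA was sequenced by the submitters on an Illumina NovaSeq, and the submitters' processing notes name STAR and mm10. The version, annotation, counting program and strand setting are not given in the sources used here. The authors deposited raw read counts per Ensembl gene, 1 column per library. The authors also deposited FPKM values, in which every gene with counts (100.0% of 29312) had 1 length in all tumor libraries within 1 percent, and which were used for no test. Symbols were matched for 54495 of 54532 IDs, and the other 37 held 0.00594% of counts. Replicates are separate tumors by their labels, and no 2 tumors of a group agreed within sampling noise (20 pairs, chi-square per degree of freedom 20.3 to 129).

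Tumor counts were tested with edgeR 4.0.16 (TMM, filterByExpr, robust quasi-likelihood test, Benjamini-Hochberg adjustment) in R 4.3.3, on the 10 SCID-beige tumors. BALB/c tumors and cultures had fits of their own, and all 18 tumors entered a fit for the line by host interaction. Adjusted p under 0.05 counted as called. A prior count of 2 was used for log2 CPM values only, and the fitted log2 fold changes kept edgeR's default. In data simulated for the SCID-beige comparison, with 200 of 14537 genes changed by a log2 value of 2, 97% were recovered. Of the calls made there, 4.43% were false with edgeR and 9.77% with DESeq2. Every simulated gene had the same spread beyond counting error, so smaller changes and outlying tumors were not covered. Alternatives were DESeq2 1.42.0, other normalization and filters, left-out libraries, a replicate block, a fold threshold, thinning and GC content.

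Named genes were the 10 largest rises and falls with at least 10 CPM and no overlap, the 6 largest changes of level each way, up to 4 leading members and preset members of each of 54 lists with 1163 genes, genes the study names, interaction genes and the 3 largest rises and falls of noncoding RNA with at least 5 CPM. Other list members were named after their values were seen. The genes, lists and tests were chosen with earlier results of these data known.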

Additional observations from a re-analysis of the deposited data

Results flagged for a closer look

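In 15 of 136 groups of 5 tumors tested, the highest or lowest tumor stood apart from the rest by more than Dixon's 95% limit of 0.71 of the group's range. For independent, normally distributed groups chance would flag about 1 in 20, or 6.8 of 136. Here the levels were plain CPM, some genes are also part of a sum, and groups at 0 throughout could not be flagged. The 15 groups and 6.8 are therefore not directly comparable. In the D2.1 tumors these were Pitx1 in tumor 4 (2.37 CPM, the others at 0), Krt14 in tumor 3 (338 CPM), Krt18 in tumor 4 (169.8 CPM), Krt8 in tumor 4 (939 CPM), Arg1 in tumor 4 (8.66 CPM), Ccnd1 in tumor 3 (606 CPM) and Ereg in tumor 3 (1.10 CPM, the others at 0). In the D2A1 tumors they were Igf2bp1 in tumor 5 (65.2 CPM, the lowest), Klrb1c in tumor 2 (0.481 CPM), Myc in tumor 5 (503 CPM) and Hbb-bs in tumor 5 (875 CPM). Among summed marker levels they were the neutrophil sum of D2A1 tumor 4 (158 CPM), the erythroid sum of D2A1 tumor 5 (1586 CPM), the pericyte and smooth muscle sum of D2.1 tumor 5 (933 CPM) and the Schwann cell sum of D2.1 tumor 1 (9.50 CPM). D2.1 tumor 4 thus stood apart in 4 genes and D2A1 tumor 5 in 3 genes and 1 sum.

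In 3 genes the line difference itself differed between hosts (edgeR interaction test, adjusted p = 0.0173 for each). On the log2 scale, BALB/c minus SCID-beige, it was 6.67 for Crmp1, 4.61 for Trac and 2.39 for D630003M21Rik.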

How the results depend on the processing

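The number of genes called in SCID-beige tumors, 4607 as reported, was within 1.5 times of that under DESeq2 (5127), DESeq2's size factors (4616), no filter (4600), a filter of 10 counts in every library of one group (4753), 1 fit of all 18 tumors (5419), thinned counts (4541), GC content as a covariate (5712) and left-out libraries (3969 to 4916). A log2 fold change tested beyond 1 left 1231 calls, fewer by construction. The labels give both groups replicate numbers 1 to 5, but same-numbered tumors did not all deviate together (correlations from -0.16 to 0.34, 4 of 5 over 0.1, and 3 of 5 D2.1 tumors closest to their own number), so the numbers were not used to pair tumors. The slope of log2 level on GC content was 1.87, 1.47, -2.50, 0.22 and -2.75 in D2.1 tumors 1 to 5. In D2A1 tumors 1 to 5 it was 2.71, 2.38, -1.17, 0.05 and -2.28. This trait thus followed the same order of numbers in both groups, and whether same-numbered tumors were handled together was not tested. A replicate block gave 5311 calls in SCID-beige tumors, 7116 in BALB/c tumors and 7539 in culture. The block together with GC content gave 2345, and the cause was not tested. With the block, 8 genes of the p53 list were higher, and with the block and GC content 38 of the interferon list.

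For the interaction, the 3 genes became 105 with DESeq2, 6 with its size factors, 7 with no filter and 0 to 12 with single libraries left out, among them 0 without D2.1 tumor 3 or 4 or D2A1 tumor 1 or 4 of the BALB/c host and 12 without SCID-beige D2.1 tumor 4 (edgeR, unadjusted p under 0.05 for 1109 to 1232 genes in the 4 fits with 0). The cause was not tested. A replicate block was not run there, since the hosts have unequal numbers.

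Of 321 named genes with a call, 6 lost it under the block, 108 under the block with GC content, 0 under DESeq2 where it gave an adjusted p, and 25 when a library was left out. DESeq2 called 0 of the 3 erythroid genes, which are not counted as lost there. Among single genes named in the text, 1 turned its direction, Id4, at -0.16 with the block and GC content. Calls were counted with libraries of 13566949 counts or more, so genes near the floor of 3 counts are limited by depth.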

Other observations

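Opposite calls in SCID-beige tumors and in culture were made for 69 genes higher and 142 genes lower in D2.1 tumors. Nt5e, the surface enzyme that makes adenosine, differed by -1.39 on the log2 scale in SCID-beige tumors and 1.77 in culture, and Hmox1 by -1.34 and 0.57. In BALB/c tumors the values were -2.17 for Nt5e and -1.50 for Hmox1. Both genes were chosen after their values were seen.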
